A study of Mus musculus with 11 samples.

Results

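The genes described here encode the 10 nuclear import receptors Kpna1, Kpna2, Kpna3, Kpna4, Kpna6, Kpna7, Kpnb1, Tnpo1, Tnpo2 and Tnpo3, chosen by symbol from the 24421 genes of the count table. Their levels were followed from mature oocytes to 2-cell embryos in 11 mouse RNA-seq libraries. There were 2 libraries of maternal knockout 2-cell embryos, 3 of control 2-cell embryos, 3 of knockout oocytes and 3 of control oocytes. All females were Daxx F/F (allele Daxxtm2Led, flanked by loxP sites), on a mixed C57BL/6J and 129/Sv background and over 8 weeks old. Only the knockout females also carried the Zp3-cre transgene, which is driven by a promoter active in growing oocytes, so Daxx loss and the transgene came together. Mature, or MII, oocytes were taken 20 hours after hCG. For embryos, JF1 sperm were added in vitro and 2-cell stages were taken 33 hours later, so that the maternal knockout embryos (m-z+) still received a paternal Daxx allele. The RNA of a library came from a single pool of 50 cells or embryos, given by 2 to 3 females, and p-values measure the spread between such pools.

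Import receptors carry proteins from the cytoplasm through the nuclear pore. The importin alpha proteins, encoded by the Kpna genes, read the classical nuclear localisation signal of a cargo and bind importin beta, encoded by Kpnb1, which moves the complex through the pore. The transportins, encoded by the Tnpo genes, belong to the importin beta family and bind their cargo directly. Inside the nucleus the GTP-bound form of Ran releases the cargo. The importin alpha genes form 3 subfamilies, namely Kpna2 with Kpna7, Kpna3 with Kpna4, and Kpna1 with Kpna6. In mice, Kpna7 is known as the importin alpha of oocytes and early embryos, and maternal Kpna6 is known to be needed for the first cleavages.

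Depth was 17978192 to 25308468 counted reads in the embryo libraries and 32582998 to 39798586 in the oocyte libraries. Levels are given as CPM, a gene's reads scaled to a common library total, or as RPKM, which also divides by the gene's deposited length and so allows genes to be compared with each other. Both are shares of the counted reads: amounts per oocyte or embryo were not measured, and a smaller share of cells holding a transcript cannot be told apart from less transcript per cell. Daxx had 22.8 and 25.5 CPM in maternal knockout embryos, against 35.2 to 46.7 CPM in control embryos, and 7.83 to 8.40 CPM in knockout oocytes, against 86.2 to 97.2 CPM in control oocytes. All 10 oocyte markers were lower in control embryos than in control oocytes, and all 7 of 8 listed 2-cell markers that were in the table were higher. The 10 granulosa and cumulus markers summed to 9.82 to 13.8 CPM in embryos and 19.7 to 22.3 CPM in oocytes, and the 3 blood markers to at most 0.184 CPM in any library. Among the granulosa and cumulus markers, Cyp19a1 had a mean of 688 reads in knockout and 703 in control oocytes. No other marker of that list had a mean above 75 reads in either oocyte group. Lars2, a gene that can take up reads of ribosomal RNA, held 0.482% to 1.85% of the counted reads in embryo libraries and 0.142% to 0.201% in oocyte libraries, and its part in the stage changes was not tested. The 6 sperm markers summed to 0.612 to 4.54 CPM in embryos, to 6.30 to 7.62 CPM in knockout oocytes and to 2.67 to 3.62 CPM in control oocytes.

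In RefSeq's GRCm38.p6 annotation the genes lie apart in the genome, with Kpna1 at chr16:35983288-36037136, Kpna6 at chr4:129643979-129672767, Kpna3 at chr14:61365186-61439947, Kpna4 at chr3:69072221-69127092, Kpna2 at chr11:106988629-106999525, Kpna7 at chr5:144983727-145009636, Kpnb1 at chr11:97159710-97187892, Tnpo1 at chr13:98839019-98926384, Tnpo2 at chr8:85036873-85057585 and Tnpo3 at chr6:29540827-29609858. Kpna1 and Tnpo2 are on the plus strand and the rest on the minus strand. Promoters, from 250 bases before to 50 bases after the annotated start (RefSeq, GRCm38.p6), were found for 7 of the 10 genes. They are not given here for Kpna1, Kpna3 and Kpna6. Those printed belong to both members of the Kpna2 and Kpna7 pair, whose levels fell after fertilisation, and to Kpna4 and Tnpo3, whose levels rose most among the genes with a promoter in the table. All 4 genes lie on the minus strand, at chr5:145009587-145009886 for Kpna7, chr11:106999476-106999775 for Kpna2, chr3:69127043-69127342 for Kpna4 and chr6:29609800-29610099 for Tnpo3. Capitals mark every match, on either strand, to 7 motifs, namely the box CCAAT, the GC box GGGCGG, the TATA motif TATAAA, the motif CACGTG, the motif GGATTA, the motif TAATTG and the E-box CANNTG, which also covers CACGTG.
Kpna7: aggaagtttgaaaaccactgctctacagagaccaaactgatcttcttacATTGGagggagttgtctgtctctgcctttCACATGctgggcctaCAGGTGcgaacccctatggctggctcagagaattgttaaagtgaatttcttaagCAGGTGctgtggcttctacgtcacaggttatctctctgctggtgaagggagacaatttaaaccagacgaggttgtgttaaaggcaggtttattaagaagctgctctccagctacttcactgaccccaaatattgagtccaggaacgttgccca
Kpna2: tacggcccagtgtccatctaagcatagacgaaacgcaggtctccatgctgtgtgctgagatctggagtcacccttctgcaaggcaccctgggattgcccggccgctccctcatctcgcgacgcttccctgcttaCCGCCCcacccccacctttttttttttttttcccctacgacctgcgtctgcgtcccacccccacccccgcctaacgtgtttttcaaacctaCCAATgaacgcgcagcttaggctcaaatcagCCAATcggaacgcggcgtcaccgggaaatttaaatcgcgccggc
Kpna4: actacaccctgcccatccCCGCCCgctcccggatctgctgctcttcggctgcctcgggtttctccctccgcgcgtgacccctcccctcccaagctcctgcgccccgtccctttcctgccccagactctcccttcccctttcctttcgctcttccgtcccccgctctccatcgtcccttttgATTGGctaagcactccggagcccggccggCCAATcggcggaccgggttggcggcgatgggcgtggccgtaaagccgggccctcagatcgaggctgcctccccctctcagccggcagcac
Tnpo3: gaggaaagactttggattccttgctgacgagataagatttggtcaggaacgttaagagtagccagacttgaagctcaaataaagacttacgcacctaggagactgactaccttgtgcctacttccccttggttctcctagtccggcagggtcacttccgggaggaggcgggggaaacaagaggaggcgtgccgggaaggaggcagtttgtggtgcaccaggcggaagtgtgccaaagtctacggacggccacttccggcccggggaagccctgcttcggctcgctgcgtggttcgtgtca

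The Kpna7 promoter held 4 CpG dinucleotides and 46.7% G and C, against 24 and 57.7% for Kpna2, 27 and 68.7% for Kpna4 and 17 and 56.7% for Tnpo3. The median of all 32851 promoters was 7 CpG dinucleotides and 52.7% G and C. The Kpna7 window held 3 E-boxes, a motif found in 72.3% of promoters, and 1 CCAAT. Kpna2 and Kpna4 each held 2 CCAAT and 1 GC box, which occurred in 37.4% and 35.7% of promoters. The Tnpo3 window held no match. The remaining motifs were in none of the 4 windows: TATAAA was in 13.6% of all promoters, CACGTG was in 7.15%, GGATTA was in 7.06% and TAATTG was in 8.00%.

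The first question was how the receptors changed between the oocyte and the 2-cell embryo. Kpna1, Kpna4 and Tnpo3 had few reads in oocytes and far more in embryos, whereas Kpna7 and Kpna2 fell. Of the remaining genes, Kpna6, Kpna3, Kpnb1 and Tnpo2 rose and Tnpo1 fell. Despite its rise, Kpna4 had the lowest mean level per length of the 10 in maternal knockout embryos (20.9 RPKM) and control embryos (19.8 RPKM). In knockouts all 10 genes passed the edgeR test (adjusted p under 0.05), 7 higher and 3 lower in embryos. Of 16592 genes tested there, 80.2% passed, 42.5% higher and 37.7% lower, so that passing was common among all genes. In controls again all 10 passed, 7 higher and 3 lower, where 83.1% of 15577 genes tested passed, 43.1% higher and 40.0% lower. A change of at least 2-fold was met in knockouts by 5 genes higher and 2 lower, against 33.2% and 26.4% of all genes, and in controls by 4 higher and 2 lower, against 33.0% and 28.5%. The median log2 change of the 10 genes was 0.80 in knockouts and 0.74 in controls, beside 0.09 and 0.07 for all genes tested. The CPM ranges of embryo and oocyte libraries did not overlap for any of the 10 genes in either genotype, which was also so for 86.9% of all genes tested in knockouts and 85.0% in controls.

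**Figure D1:**
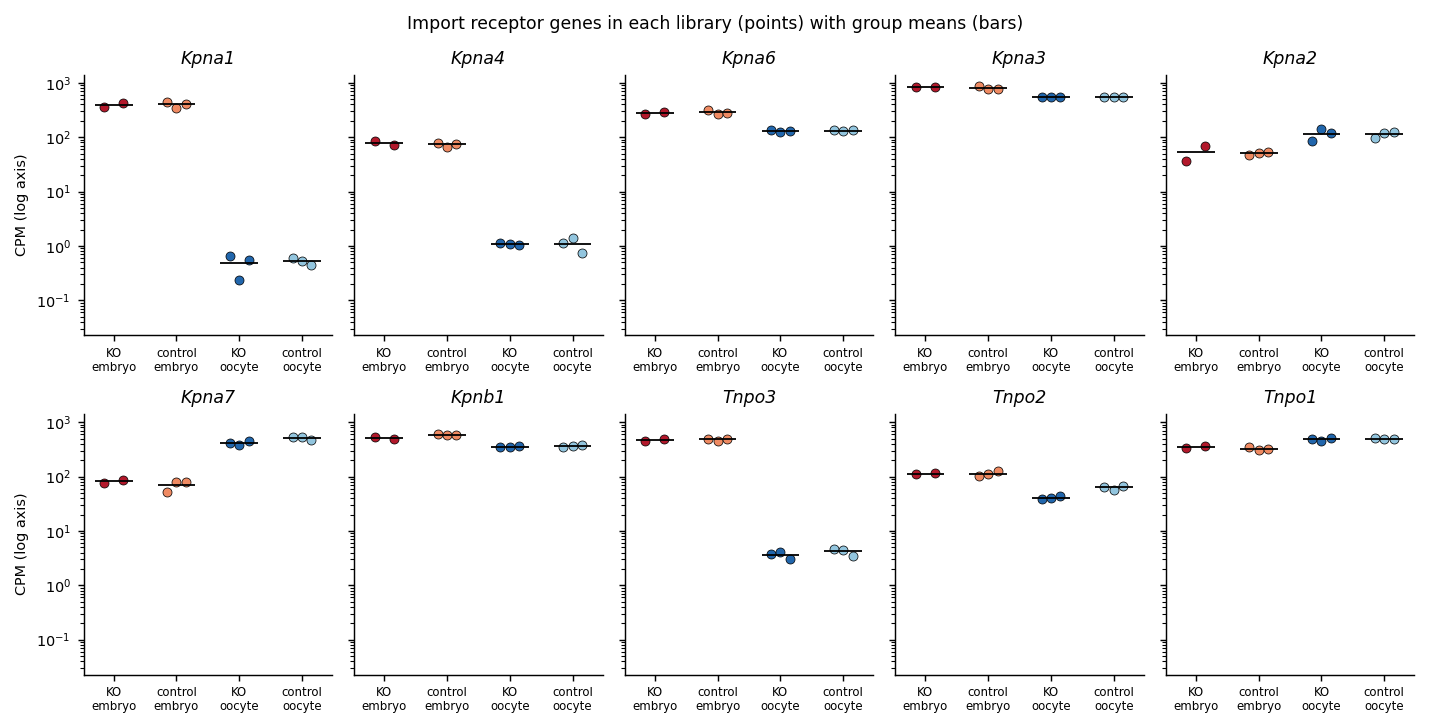
Levels of the 10 import receptor genes in CPM, on a log axis, in each library (points) with the group mean (bars). The groups from left to right are maternal knockout (KO) embryos, control embryos, KO oocytes and control oocytes. Kpna1, Kpna4 and Tnpo3 stand between 67.1 and 499.6 CPM in embryos and between 0.239 and 4.57 CPM in oocytes.

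The importin alpha gene Kpna1 changed most. In knockouts it had 358 and 426 CPM in embryos, against 0.655, 0.239 and 0.556 CPM in oocytes. In controls it had 436, 347 and 416 CPM in embryos, against 0.614, 0.528 and 0.443 CPM in oocytes. Every embryo library thus stood far above every oocyte library, in which Kpna1 had only 9 to 25 reads. The log2 change was 9.61 (SE 0.22, edgeR adjusted p = 2.7e-09) in knockouts and 9.54 (SE 0.16, adjusted p = 3.5e-12) in controls. Only 1.41% of all genes tested in controls had a more positive change.

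Kpna6, of the same subfamily as Kpna1, was present at both stages. Maternal knockout embryos had 270 and 290 CPM of Kpna6, against 135, 127 and 130 CPM in knockout oocytes. Control embryos had 313, 267 and 281 CPM, against 134, 128 and 135 CPM in control oocytes. Embryos were thus well above oocytes in both genotypes, and the oocyte libraries of both lay close together. The log2 rise was 1.05 (SE 0.08, edgeR adjusted p = 1.2e-06) in knockouts and 1.09 (SE 0.09, adjusted p = 3.6e-07) in controls.

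Kpna4 had 84.1 and 71.5 CPM in maternal knockout embryos, against 1.13, 1.09 and 1.06 CPM in knockout oocytes. In control embryos it had 79.7, 67.1 and 74.1 CPM, against 1.14, 1.38 and 0.755 CPM in control oocytes. The oocyte values rest on 29 to 55 reads and lay far below all embryo values. The log2 rise was 6.10 (SE 0.13, edgeR adjusted p = 6.3e-10) in knockouts and 6.05 (SE 0.19, adjusted p = 1.3e-10) in controls.

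Its close relative Kpna3 was already abundant in oocytes and rose far less. Kpna3 had 833 and 822 CPM in maternal knockout embryos, against 552, 547 and 539 CPM in knockout oocytes, a log2 rise of 0.55 (SE 0.07, edgeR adjusted p = 4.0e-05). It had 861, 761 and 777 CPM in control embryos, against 546, 555 and 555 CPM in control oocytes, a rise of 0.51 (SE 0.08, adjusted p = 0.00013). Of the 10 genes Kpna3 varied least between oocyte libraries, with a coefficient of variation of 1.13% in knockouts and 0.929% in controls.

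Kpna7 had the highest mean level per length of these receptors in oocytes, by a margin that depended on the length used, and fell steeply. Maternal knockout embryos had 76.2 and 86.0 CPM of Kpna7, against 421, 372 and 452 CPM in knockout oocytes. Control embryos had 51.3, 79.4 and 79.4 CPM, against 527, 526 and 466 CPM in control oocytes. Maternal knockout embryos thus stood at 19.5% of the level in knockout oocytes, and control embryos at 13.8% of that in control oocytes. The log2 change was -2.40 (SE 0.12, edgeR adjusted p = 7.5e-08) in knockouts and -2.88 (SE 0.15, adjusted p = 5.5e-09) in controls. Arpc1a, on the opposite strand, shares 50 exon bases with Kpna7 (GENCODE M21) and had 33.8 to 47.4 CPM in embryos and 7.65 to 12.1 CPM in oocytes. The strand setting of the counting is not stated, and whether reads of the 2 genes were mixed was not tested.

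Kpna2, widely used in dividing cells and known to import Oct4 in mouse embryonic stem cells, differed between libraries of the same knockout group. It had 36.3 and 69.4 CPM in maternal knockout embryos, against 85.0, 143 and 121 CPM in knockout oocytes. Control embryos had 46.3, 51.4 and 53.1 CPM, against 97.3, 120 and 127 CPM in control oocytes. The embryo libraries lay below the oocyte libraries in both genotypes. The coefficient of variation was 44.3% in maternal knockout embryos and 25.02% in knockout oocytes, and 7.001% in control embryos and 13.6% in control oocytes. In knockouts the log2 change was -1.18 (SE 0.39, edgeR adjusted p = 0.038), and the call was lost without knockout embryo replicate 2 (-0.77, adjusted p = 0.21), without knockout embryo replicate 3 (-1.76, adjusted p = 0.061) and without knockout oocyte replicate 3 (-1.14, adjusted p = 0.055). Kpna2 passed in 8 of the 13 alternatives run in knockouts, so the losses were not limited to these. In controls the change of Kpna2 was -1.22 (SE 0.12, edgeR adjusted p = 1.3e-06).

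**Figure D2:**
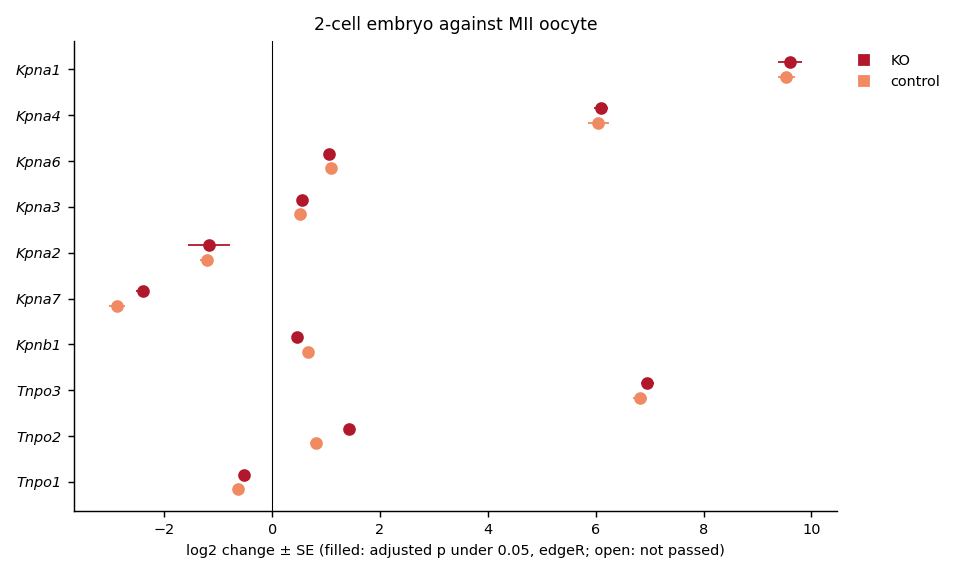
Log2 change ± SE of each gene between 2-cell embryos and MII oocytes, in knockout (KO, red) and control (orange) libraries, from edgeR; bars not seen are shorter than the points. Changes run between 9.61 for Kpna1 and -2.88 for Kpna7, and each gene has the same sign in both genotypes.

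Kpnb1, the partner of the importin alpha proteins, rose modestly. Its levels were 523 and 491 CPM in maternal knockout embryos, against 351, 353 and 359 CPM in knockout oocytes. They were 600.2, 569 and 568 CPM in control embryos, against 345, 357 and 377 CPM in control oocytes. Every embryo library lay above every oocyte library. The log2 rise was 0.47 (SE 0.07, edgeR adjusted p = 0.00013) in knockouts and 0.66 (SE 0.08, adjusted p = 1.2e-05) in controls. Gm11583, annotated as antisense on the opposite strand, shares 466 exon bases with Kpnb1. It has no counts of its own in these data, and its part was not tested.

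Among the transportins, Tnpo3, the import receptor of serine and arginine rich splicing factors, was like Kpna1 and Kpna4 in being low in oocytes. It had 456 and 480.1 CPM in maternal knockout embryos, against 3.77, 4.07 and 3.10 CPM in knockout oocytes. It had 492, 451 and 499.6 CPM in control embryos, against 4.57, 4.55 and 3.44 CPM in control oocytes. The oocyte values rest on 117 to 181 reads, so Tnpo3 was counted there above the floor of 3 reads. The log2 rise was 6.96 (SE 0.12, edgeR adjusted p = 3.1e-10) in knockouts and 6.82 (SE 0.13, adjusted p = 5.2e-12) in controls. Irf5, on the opposite strand, shares 411 exon bases with Tnpo3. It had 24.2 to 28.4 CPM in embryos and 0.399 to 0.729 CPM in oocytes. Irf5 thus rose too, by 5.76 (SE 0.19) in knockouts and 5.63 (SE 0.22) in controls. Its part in the counts of Tnpo3 was not tested.

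Tnpo1 and Tnpo2 encode near relatives that carry hnRNP proteins, and they moved in opposite directions. Tnpo1 had 338 and 358 CPM in maternal knockout embryos, against 487, 449 and 519.5 CPM in knockout oocytes, with a log2 value of -0.53 (SE 0.09) and an edgeR adjusted p of 0.00048. It had 355, 301 and 317 CPM in control embryos, against 509, 489 and 490.4 CPM in control oocytes, a change of -0.64 (SE 0.09, adjusted p = 3.2e-05). All embryo libraries thus lay below all oocyte libraries for Tnpo1, and above them for Tnpo2. Tnpo2 had 113 and 115 CPM in maternal knockout embryos, against 38.4, 40.6 and 44.2 CPM in knockout oocytes, a rise of 1.42 (SE 0.09, adjusted p = 5.8e-07). It had 100.3, 113 and 125 CPM in control embryos, against 64.8, 56.4 and 68.2 CPM in control oocytes, a rise of 0.81 (SE 0.11, adjusted p = 2.6e-05).

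Set side by side per length, the paralogues stood in another order in embryos than in oocytes. In control embryos Kpna3 was highest (192 ± 12.9 RPKM, SD, n = 3), then Kpnb1 (98.0 ± 3.09) and Kpna1 (63.9 ± 7.53), each without overlap with the next. Tnpo3 (50.7 ± 2.74) and Kpna6 (50.2 ± 4.08) overlapped, and Tnpo1 stood at 39.8 ± 3.38 without overlap on either side. Kpna7 (30.3 ± 7.001), Kpna2 (24.7 ± 1.73), Tnpo2 (22.6 ± 2.46) and Kpna4 (19.8 ± 1.68) each overlapped with the next. In control oocytes the highest level was that of Kpna7 (219 ± 15.03 RPKM, SD, n = 3), followed by Kpna3 (132 ± 1.23). Tnpo1 (60.9 ± 1.38), Kpnb1 (60.8 ± 2.74) and Kpna2 (56.3 ± 7.67) came next, with neighbouring ranges that overlapped. Kpna6 (23.2 ± 0.673) and Tnpo2 (12.7 ± 1.21) lay lower, and Tnpo3, Kpna4 and Kpna1 lay at 0.441, 0.293 and 0.0843 RPKM, of which Tnpo3 and Kpna4 overlapped. With the deposited lengths, the order of the means was the same in maternal knockout embryos as in control embryos. In knockout oocytes it differed from that in control oocytes in that Kpnb1 stood above Tnpo1, with overlapping ranges, and Tnpo3 and Kpna4 did not overlap. These levels rest on the deposited lengths, which are shorter than the exon unions of GENCODE M21, most of all for Kpna4 (3726 against 8940 bases). With those unions Kpna6 stood above Tnpo3 in both embryo groups, Kpnb1 above Tnpo1 in both oocyte groups, and Kpna2 above Tnpo2 in maternal knockout embryos (18.4 and 18.1 RPKM) but below it in control embryos (17.5 and 18.0 RPKM). The means of Kpna7 and Kpna3 were then nearly level in knockout oocytes (132 and 127 RPKM), and were 161 and 128 RPKM in control oocytes.

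Within the importin alpha genes, Kpna7 made up 8.73% and 9.15% of the summed level per length in maternal knockout embryos and 5.59% to 9.48% in control embryos, against 41.9% to 48.0% in knockout and 47.9% to 52.9% in control oocytes. Kpna3 took 48.5% and 52.9% in maternal knockout embryos and 48.8% to 52.0% in control embryos, against 31.8% to 34.8% and 30.1% to 31.6% in knockout and control oocytes. Kpna1 took 15.1% and 16.7% in maternal knockout embryos and 15.3% to 17.5% in control embryos, against at most 0.0275% in any oocyte library. The summed level itself differed less: it was 377.7 and 406 RPKM in maternal knockout embryos, 362 to 397 RPKM in control embryos, 380.2 to 407 RPKM in knockout oocytes and 421 to 442 RPKM in control oocytes. The sum was 4.27 and 4.89 times the Kpnb1 level in maternal knockout embryos, against 6.40 to 6.70 times in knockout oocytes, and 3.76 to 3.98 times in control embryos, against 6.61 to 7.38 times in control oocytes. Among the transportins, Tnpo3 took 42.9% and 43.0% of the summed level in maternal knockout embryos and 44.3% to 45.2% in control embryos, against at most 0.674% in oocytes, and Tnpo1 held 81.1% to 88.1% in the oocyte libraries. All these shares and sums rest on the deposited lengths and change with the exon unions. In control embryos the unions gave means of 186 RPKM for Kpna3 and 8.23 RPKM for Kpna4, in place of 192 and 19.8 RPKM.

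**Figure D3:**
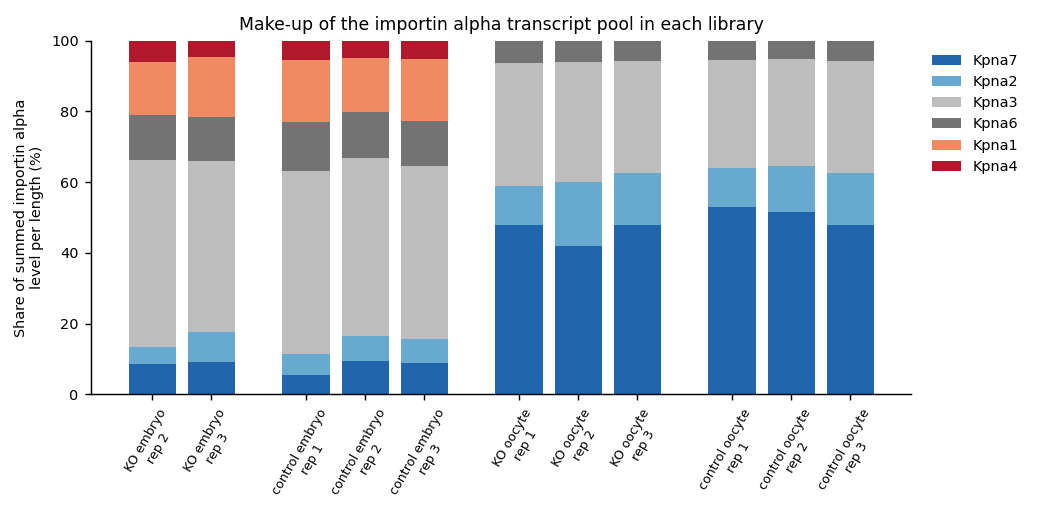
Share of each Kpna gene in the summed importin alpha level per deposited length, in percent, for each library. The bars are grouped as maternal knockout (KO) embryos, control embryos, KO oocytes and control oocytes. Kpna7 takes 41.9% to 52.9% in oocytes and 5.59% to 9.48% in embryos, while Kpna1 is visible in embryos only.

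The paralogues Kpna2 and Kpna7 both fell, but not equally. Within a library, the ratio of Kpna2 to Kpna7 per length does not depend on the scaling between libraries. It was 0.540 and 0.915 in maternal knockout embryos, against 0.229, 0.434 and 0.303 in knockout oocytes. It was 1.02, 0.735 and 0.759 in control embryos, against 0.209, 0.258 and 0.310 in control oocytes. All 5 embryo libraries lay above all 6 oocyte libraries, with a mean difference of 1.46 on the log2 scale (exact permutation test, two-sided, p = 0.0022, the smallest that 462 arrangements can give). The difference was 1.18 within knockouts (exact p = 0.20) and 1.70 within controls (exact p = 0.10), where neither design can go below 0.10. The other pairs of paralogues were not tested against each other.

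The second question was whether the loss of Daxx altered these genes. In oocytes, Tnpo2 was the 1 gene of the 10 that differed. It had 38.4, 40.6 and 44.2 CPM in knockout oocytes, against 64.8, 56.4 and 68.2 CPM in control oocytes, without overlap. The fall was -0.64 (SE 0.08, edgeR adjusted p = 0.0052), to 65.0% of the control level, and Tnpo2 ranked 15 of 14235 genes by p. Over all genes tested, 0.583% passed, with 0.450% higher and 0.133% lower. The call held in all 14 alternatives, with adjusted p up to 0.044 without control oocyte replicate 1. A230103J11Rik, annotated as a processed transcript on the opposite strand, shares 666 exon bases with Tnpo2. It had 5.45 to 5.55 CPM in knockout oocytes, against 5.80 to 8.78 CPM in control oocytes, also without overlap. The log2 difference was -0.43 (SE 0.15, edgeR unadjusted p = 0.012, adjusted p = 0.30). Between stages A230103J11Rik rose by 1.68 (SE 0.14) in knockouts and 1.43 (SE 0.19) in controls. Its part in the counts of Tnpo2 was not tested. Gm25506, a small nucleolar RNA on the same strand, shares 69 exon bases with Tnpo2. It has no counts of its own in these data, and its part was not tested. The summed sperm markers did not overlap between these groups either, as given above, and their part in the result was not tested. Prm2 held most of these reads, with a mean of 207 in knockout and 68.7 in control oocytes. The means were 42.7 and 34.7 for Akap4, 17.3 and 12.3 for Odf1 and 2.67 and 0 for Prm1, and Tnp1 and Tnp2 had 0 reads in both groups.

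Kpna7 had 421, 372 and 452 CPM in knockout oocytes, against 527, 526 and 466 CPM in control oocytes. The groups did not overlap, but the difference of -0.30 (SE 0.08) did not pass in edgeR (adjusted p = 0.19). It passed in DESeq2 (adjusted p = 0.0048) and in no other of the 14 alternatives. Of all genes tested in oocytes, 15.7% had no overlap between the genotypes and 10.3% had an unadjusted p under 0.05, beside Tnpo2 and Kpna7 among the 10 by either measure. The remaining 8 genes overlapped and had log2 differences between -0.22 for Tnpo3 (SE 0.16) and -0.005 for Kpna2 (SE 0.24), at edgeR adjusted p of 0.74 to 1.00.

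In embryos, 0 of the 10 genes passed between genotypes in edgeR, at an unadjusted p under 0.05 as well, and in DESeq2 and limma-voom, while 0.0260% of 15414 genes tested passed in edgeR and 3.19% had an unadjusted p under 0.05. The targeted gene Daxx did not pass in edgeR either (log2 -0.75, SE 0.19, adjusted p = 0.54), with an unadjusted p of 0.00081. Not passing after adjustment therefore does not show that a gene was unaltered in embryos. Tnpo2 had 113 and 115 CPM in maternal knockout embryos, against 100.3, 113 and 125 CPM in control embryos, with a difference of -0.02 (SE 0.14). Kpna7 had 76.2 and 86.0 CPM in maternal knockout embryos, against 51.3, 79.4 and 79.4 CPM in control embryos, with a difference of 0.18 (SE 0.18). Kpnb1 had 523 and 491 CPM in maternal knockout embryos, against 600, 569 and 568 CPM in control embryos. Kpnb1 was the 1 gene of the 10 without overlap, where 17.8% of all genes tested had none, and its difference of -0.23 (SE 0.13) had an edgeR adjusted p of 1.00.

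**Figure D4:**
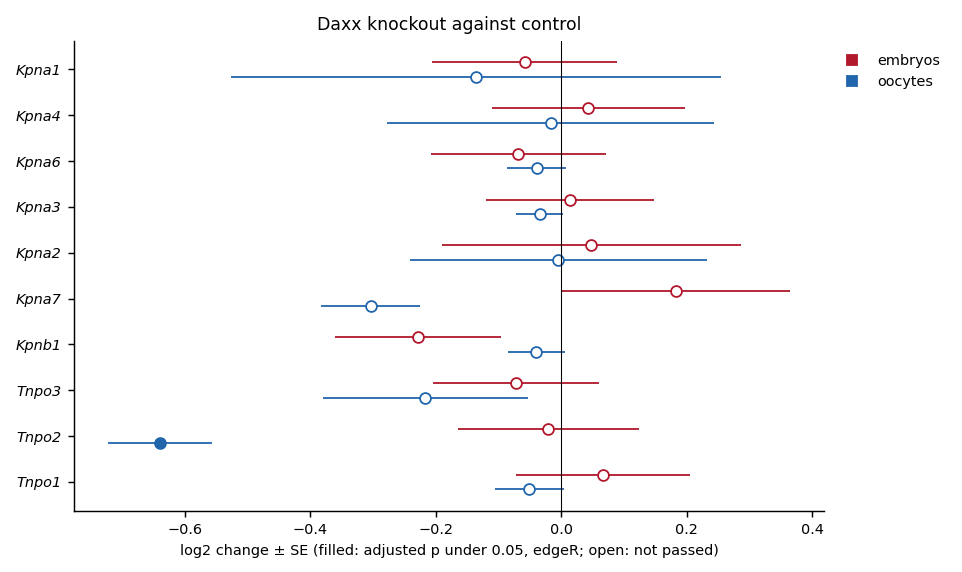
Log2 difference ± SE between Daxx knockout and control libraries for each gene, in embryos (red) and oocytes (blue), from edgeR. The filled point is Tnpo2 in oocytes at -0.64, and the open points did not pass at an adjusted p under 0.05.

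Whether the stage change itself differed between genotypes was tested across all 11 libraries. None of the 10 genes passed in edgeR, DESeq2 or limma-voom, and 2 had an unadjusted edgeR p under 0.05. Over all 17018 genes tested, 0.0118% passed and 5.41% had an unadjusted p under 0.05. The difference was 0.61 (SE 0.15) for Tnpo2, whose unadjusted p was 0.0010, and 0.47 (SE 0.20) for Kpna7, with an unadjusted p of 0.036 and edgeR adjusted p of 0.91 for both. The other 8 lay between -0.20 for Kpnb1 (SE 0.11) and 0.13 for Tnpo3 (SE 0.16).

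The rest of the transport machinery was read from 4 lists, beside the background of all genes given above. Of 8 other import receptors, 5 rose and 1 fell between embryos and oocytes in knockouts (median log2 1.21), and 6 rose and 0 fell in controls (median log2 1.20). Ipo7, an importer of ribosomal proteins and histones, had 331 to 511 CPM in control embryos, against 22.0 to 24.3 CPM in control oocytes (4.20, SE 0.16, edgeR adjusted p = 3.6e-10). Ipo11 had 66.7 to 74.0 CPM in control embryos, against 11.7 to 13.8 CPM in control oocytes (2.37, SE 0.11).

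Of 7 exportins, 4 rose and 2 fell in knockouts, and 4 and 2 also in controls. The tRNA exportin gene Xpot had 50.7 to 59.6 CPM in control embryos, against 0.184 to 0.260 CPM in control oocytes, where it had 6 to 10 reads (log2 7.94, SE 0.19, edgeR adjusted p = 1.7e-11), a change between those of Kpna1 and Tnpo3. Xpo1, the main exporter of proteins, rose by 2.42 in controls (SE 0.12). Cse1l, which returns importin alpha to the cytoplasm, rose by 0.74 (SE 0.10, adjusted p = 2.2e-05). Xpo5, which exports microRNA precursors, changed by -1.08 (SE 0.10) and Xpo4 by -0.45 (SE 0.09).

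Of 8 genes of the Ran cycle, 4 rose and 4 fell in both genotypes. Ranbp2, a pore protein of the cytoplasmic side that binds Ran, had 705 to 823 CPM in control embryos, against 41.8 to 53.4 CPM in control oocytes (log2 3.93, SE 0.12). Rangap1, which activates the GTPase of Ran, rose by 3.48 (SE 0.16), and Ran itself by 2.5 (SE 0.11, edgeR adjusted p = 1.4e-09). Rangrf, a Ran release factor, changed by -2.17 (SE 0.27) and Ranbp3, a cofactor of Xpo1, by -0.93 (SE 0.09). Of 29 listed nuclear pore genes 28 were in the table, and of these 10 rose and 14 fell in knockouts (median -0.39), and 10 rose and 16 fell in controls (median -0.47). Tpr, of the nuclear basket, rose by 2.39 (SE 0.10) and Ahctf1, which starts pore assembly on chromatin, by 2.28 (SE 0.08), while the outer ring genes Nup85 and Nup37 changed by -2.67 (SE 0.14) and -2.64 (SE 0.11). None of the genes of the 4 lists passed between genotypes in edgeR, with 2 of 50 tested in oocytes (Xpot was left out by the filter) and 1 of 51 in embryos at an unadjusted p under 0.05, beside 10.3% and 3.19% of all genes. In oocytes these were Cse1l (log2 -0.27, SE 0.07, edgeR unadjusted p = 0.0018) and Xpo5 (-0.13, SE 0.06, unadjusted p = 0.047). In embryos it was Nup107 (-0.32, SE 0.14, unadjusted p = 0.041).

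**Figure D5:**
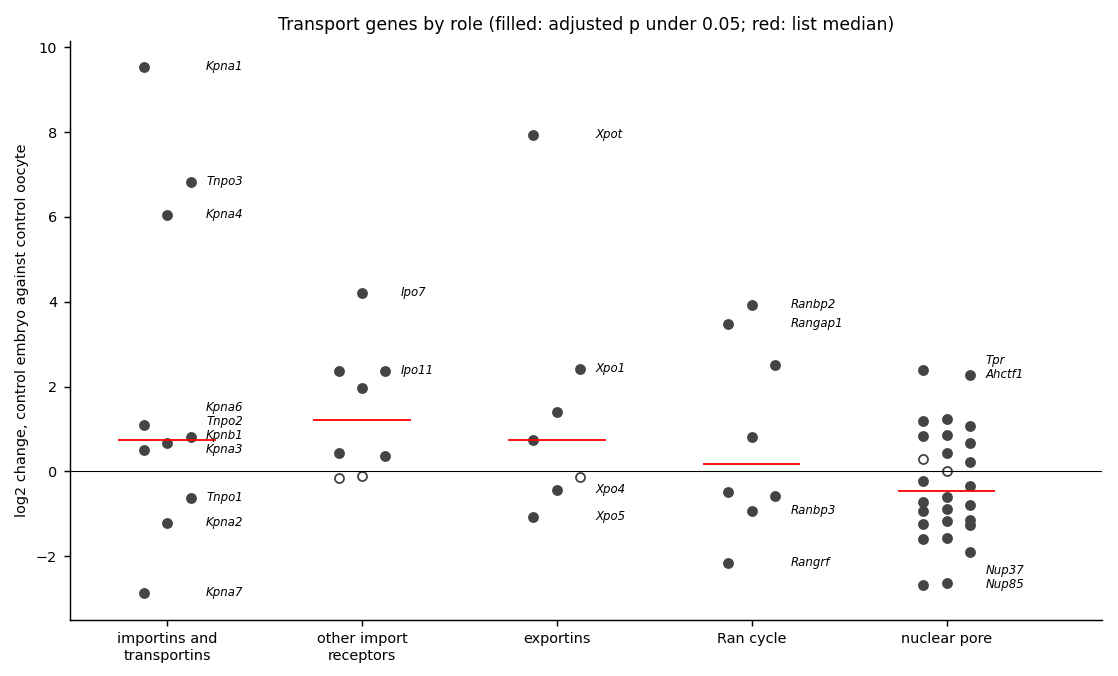
Log2 change between control 2-cell embryos and control MII oocytes for the 10 import receptor genes and 4 lists of transport genes. Each point is 1 gene, filled where the edgeR adjusted p was under 0.05, and the red bar is the list's median, from 1.20 for other import receptors to -0.47 for the nuclear pore.

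The genes nearest in pattern were named for Kpna7, Kpna2 and Tnpo2 by the root mean square distance of centred log2(CPM + 1) over the 11 libraries, among 15604 genes. For Kpna7 these were Capns1 (0.12), Pga5 (0.16) and Aldh1l1 (0.16). For Kpna2 they were Zfp960 (0.18), Cdkal1 (0.19) and Acaa2 (0.20). For Tnpo2 they were Cnbd2 (0.18), Zswim4 (0.19) and Gar1 (0.19). Capns1, which encodes the small calpain subunit, had mean levels of 15.3 CPM in maternal knockout embryos and 13.1 CPM in control embryos, against 90.7 CPM in knockout and 93.7 CPM in control oocytes. Cnbd2 had 17.2 CPM in maternal knockout embryos and 19.5 CPM in control embryos, against 5.37 CPM in knockout and 9.06 CPM in control oocytes.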

How the data were processed

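Per the labels' protocols, total RNA of each pool went into a SoLo RNA-Seq library. The authors deposited whole-number read counts for 24421 genes by Entrez number in 11 libraries and a width per gene, a value of another kind read here as its length in bases. Reads were mapped with STAR 2.5.0a to GRCm38, and SAMtools was used, per the submitters' processing notes. Of the counting, the program, its strand setting and its handling of shared reads were not given in the sources used here. Symbols came from RefSeq (GRCm38.p6), which matched 24387 identifiers. Overlaps and exon unions came from GENCODE M21.

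Tests used edgeR 4.0.16 in R 4.3.3 (filterByExpr with a count minimum of 10, TMM, robust quasi-likelihood F test), with Benjamini-Hochberg adjustment over all genes tested and a threshold of 0.05. The SE is the log2 change divided by the square root of F. A fit held the groups compared, or all 11 libraries for the difference of stage changes. Alternatives were DESeq2 1.42.0, limma-voom (limma 3.58.1), RLE factors, 2 other filters, a replicate block, 1 fit of all libraries and each library left out. Scaling by library totals and the exon union length were added after seeing the data. The edgeR test of each comparison was also run on simulated counts in which only a small part of the genes changed. Most genes passed in the real stage comparisons, so those runs do not check the stage tests under that condition. DESeq2, limma-voom, the permutation test and the sign-flip test were not run on simulated counts.

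The members and lists were chosen with earlier results of these data known. Named were all members, the largest 2 rises and falls of each list, and the 3 genes nearest in pattern to Kpna2, Kpna7 and Tnpo2. Ran and Cse1l were added after their values were seen, as were the genotype differences of Cse1l, Xpo5 and Nup107. The floor of 3 counts stood between 0.0754 and 0.167 CPM by library, covering counting error only. Replicate pools differed beyond sampling noise (chi-square per degree of freedom 5.10 to 37.2).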

Additional observations from a re-analysis of the deposited data

How the results depend on the processing

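Of the 10 genes, 9 kept their direction and call in both stage comparisons under every alternative run (14 in controls, 13 in knockouts). The exception was Kpna2, which in knockouts passed in 8 of 13 alternatives and fell in each, between -0.77 and -1.76. Scaling moved the median change of all genes from 0.07 to 0.17 with RLE factors in controls, and no member changed direction. Of the comparisons between genotypes, Tnpo2 in oocytes kept its call in all 14 alternatives. Kpna7 was added in DESeq2, so that 2 members were lower there.

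The counts over all genes moved more, and the cause was not tested. In oocytes, 64 higher and 19 lower became 153 and 70 in DESeq2, 130 and 53 without a low-count filter, and 18 and 4 with all 11 libraries in 1 fit, with 16 to 117 higher and 4 to 40 lower when 1 library was left out. In embryos, 4 higher and 0 lower became 9 and 1 in DESeq2, 30 and 2 without a filter, 12 and 1 in 1 fit of all libraries and 2 higher with library totals, with 0 to 5 higher and 0 to 4 lower without 1 library. For the difference between genotypes, 2 higher and 0 lower became 1 higher in limma-voom and 2 lower in DESeq2, with 1 to 3 higher and 0 to 1 lower without 1 library.

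Replicate numbers are shared by the groups. Of 15 same-numbered pairs of libraries, 2 had deviations correlated over 0.1 (median 0.006), beside 5 of 30 differently numbered pairs (median -0.01). Deviations were taken from the group means, which ties the values of a small group to each other. Whether same-numbered libraries shared a batch was not tested. With the replicate block, lower calls in oocytes over all genes were 32, and those in embryos 1 higher and 1 lower. The Kpna2 to Kpna7 ratio differed by 1.40 over same-numbered pairs (exact sign-flip test, p = 0.0625, the smallest it can give), by 1.70 within controls and 1.18 within knockouts, and by 1.36 to 1.59 without 1 library. With the replicate block Kpna2 in knockouts had an adjusted p of 0.12. With exon union lengths Kpna4 stood at 8.70 RPKM in maternal knockout embryos and 8.23 RPKM in control embryos, in place of 20.9 and 19.8 RPKM. Depth limits the oocyte values of Kpna1, with 9 to 25 reads in each library, and of the exportin gene Xpot, with 7 to 12 reads in knockout and 6 to 10 in control oocytes.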
